A study of Homo sapiens with 2 samples.

Results

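The SR splicing factor genes encode serine and arginine rich proteins that bind exons and help choose splice sites. The set comprised 10 genes, SRSF1, SRSF2, SRSF3, SRSF4, SRSF5, SRSF6, SRSF7, SRSF9, SRSF10 and SRSF11, and its members were the deposited NUDT21 eCLIP peaks whose midpoint lay in the body of one of these genes in GENCODE 44. Of 20499 deposited peaks, 65 met this rule. To map where NUDT21 touches RNA, the study used cells of J-Gamma1, a Jurkat derivative and established line of T-cell acute lymphoblastic leukemia. The cells received 2 irradiations with UV light of 254 nm at 400 mJ. The lysate was digested with 40 U of RNase I for 5 min, and 1 library with a NUDT21 antibody and 1 input library were prepared. The antibody library was made once, so no value below has a replicate and none carries a test. Of the 2 libraries only the antibody library had a peak list analysed here, and its read depth is unknown. The list gave no strand, so peaks could be placed in genes by their coordinates only, and transcript levels were not analysed here.

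SR proteins carry an RNA recognition motif and a tail of serine and arginine repeats, and they control their own amount. Their genes contain poison exons, whose inclusion brings a premature stop codon and sends the mRNA to nonsense-mediated decay. NUDT21 is the subunit of cleavage factor I that recognises UGUA in RNA upstream of poly(A) sites, and a partner subunit of the same complex has a tail resembling that of the SR proteins.

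Peaks were found in 7 of the 10 SR genes (70%), beside 33.8% of the 19061 protein-coding genes with a MANE Select transcript, the single main transcript used below to define regions. SRSF10, a splicing factor that turns into a repressor when dephosphorylated, held 24 peaks. SRSF11, a regulator of exon inclusion, held 22 peaks. These 2 genes together held 46 of the 65 peaks (70.8%). SRSF4, one of the larger SR proteins, held 6 peaks, and SRSF2, an activator of exon inclusion also known as SC35, held 5. SRSF1, the prototype of the family, and SRSF5 held 3 peaks each, and SRSF9 held 2. Among the 6446 genes with a peak the median was 2 peaks and the maximum 50, and 28 genes held as many peaks as SRSF10 or more. Of the 7 SR genes with a peak, 6 held more than that median, and SRSF9 equalled it.

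SRSF3, SRSF6 and SRSF7 held no peak. SRSF3 and SRSF7 also act as adaptors of mRNA export, and SRSF6 regulates alternative exons. The nearest deposited peak lay 47582 nt from SRSF3, 71654 nt from SRSF7 and 741446 nt from SRSF6. With depth unknown, the lack of a peak does not show that these RNAs were free of NUDT21. GENCODE 44 held 11 pseudogenes named after SR genes, 5 of them copies of SRSF3, and none of the 11 contained a peak. For 9 of the 65 peaks the midpoint also lay in another gene: all 3 of SRSF1 and all 5 of SRSF2 overlapped another annotated gene, and 1 peak of SRSF9 lay also in GATC. For SRSF2 the overlapping genes, MFSD11 among them, lie on the opposite strand, and without strand the source of those reads cannot be told apart.

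**Figure D1:**
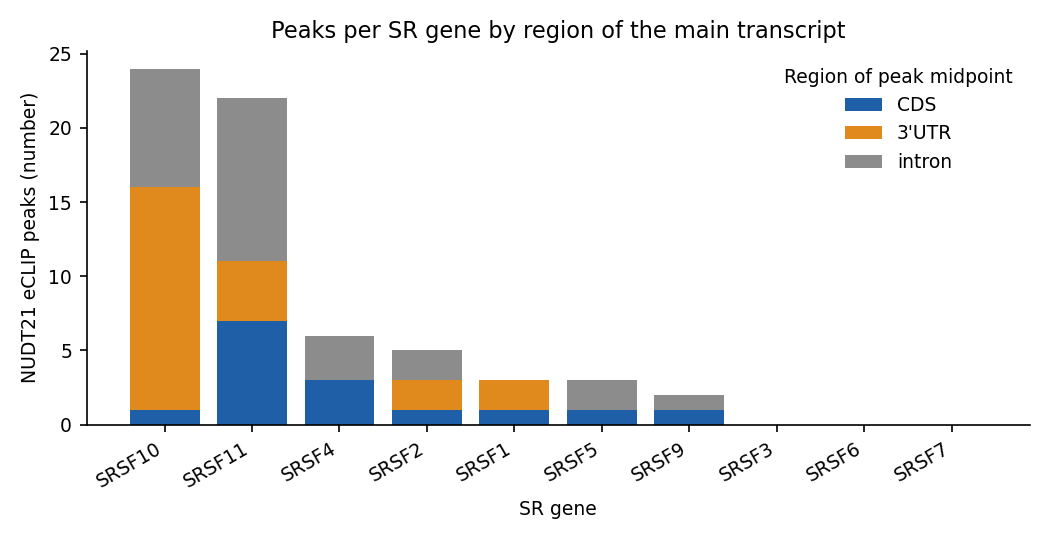
Number of NUDT21 eCLIP peaks (y axis) in each of the 10 SR genes (x axis), stacked by the region of the MANE Select transcript that holds the peak midpoint. SRSF10 with 24 peaks and SRSF11 with 22 exceeded the rest, and SRSF3, SRSF6 and SRSF7 had none.

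By midpoint, 27 of the 65 peaks lay in introns (41.5%, exact Clopper-Pearson 95% interval 29.4 to 54.4), beside 42.1% of the 19562 peaks in all protein-coding genes. A further 23 lay in 3'UTRs (35.4%, 23.9 to 48.2), beside 17.9%, and 15 lay in coding sequence (23.1%, 13.5 to 35.2), beside 31.7%. None lay in a 5'UTR. These intervals cover counting error only, and peaks of a gene share their source. The 3'UTR share rested on SRSF10, which held 15 of the 23 3'UTR peaks. Of the other 8, SRSF11 held 4, SRSF1 held 2 and SRSF2 held 2.

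Peaks of the SR genes were high. The height of a peak is its deposited Score, which moved in whole steps of 0.228, and its fold enrichment is the deposited ratio of pileup to local background. A height of 5 or more steps was reached by 61 of the 65 peaks (93.8%, 85.0 to 98.3), against 45.4% of peaks in all protein-coding genes. No SR peak was of 1 step, against 31.8% of all. The contrast was widest in introns: 23 of 27 SR intron peaks reached 5 steps (85.2%, 66.3 to 95.8), against 12.9% of the 8226 intron peaks in all protein-coding genes. Introns here are those of the main transcript. Exons of annotated nonsense-mediated decay, retained intron or undefined coding transcripts were touched by 17 of the 27 (63.0%, 42.4 to 80.6), the SRSF10 intron peaks among them. Over all protein-coding genes it was 13.3% of the 8226, and 27.1% of the 1061 intron peaks of 5 or more steps. A height of 17 steps or more was reached by 11 SR peaks (16.9%), against 1.68% of all. The highest were the coding peak of SRSF2 at 34 steps, the exon 11 peak of SRSF11 at 30 steps, and a 3'UTR peak of SRSF2, also at 30 steps. The 4 SR peaks under 5 steps were 3 in intron 1 of SRSF4, at 2, 3 and 4 steps, and 1 in intron 8 of SRSF11, at 2 steps.

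The median fold enrichment was 2.67 in the SR genes and 1.61 over all peaks in protein-coding genes. Among peaks of 5 or more steps it was 2.67 against 2.37. Within each region the SR median was the higher of the pair: 3.25 against 2.37 in coding sequence, 2.53 against 1.99 in 3'UTRs and 2.63 against 1.17 in introns. The level of the SR transcripts in these cells was not used here, and its part in peak height was not tested. An FDR under 0.05, as deposited, was reached by 1 SR peak, beside 0.0971% of all peaks in protein-coding genes, which is 19 peaks. That SR peak covered exon 11 of SRSF11 at chr1:70250383-70250515 (hg38), with a fold enrichment of 6.57 and an FDR of 0.00902. A second, on exon 7 of SRSF11, had a fold enrichment of 4.08 and an FDR of 0.537, and the other 63 SR peaks had an FDR of 1. Most SR peaks, like most of the list, thus fall outside the q-value threshold that the methods give for peak calling.

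**Figure D2:**
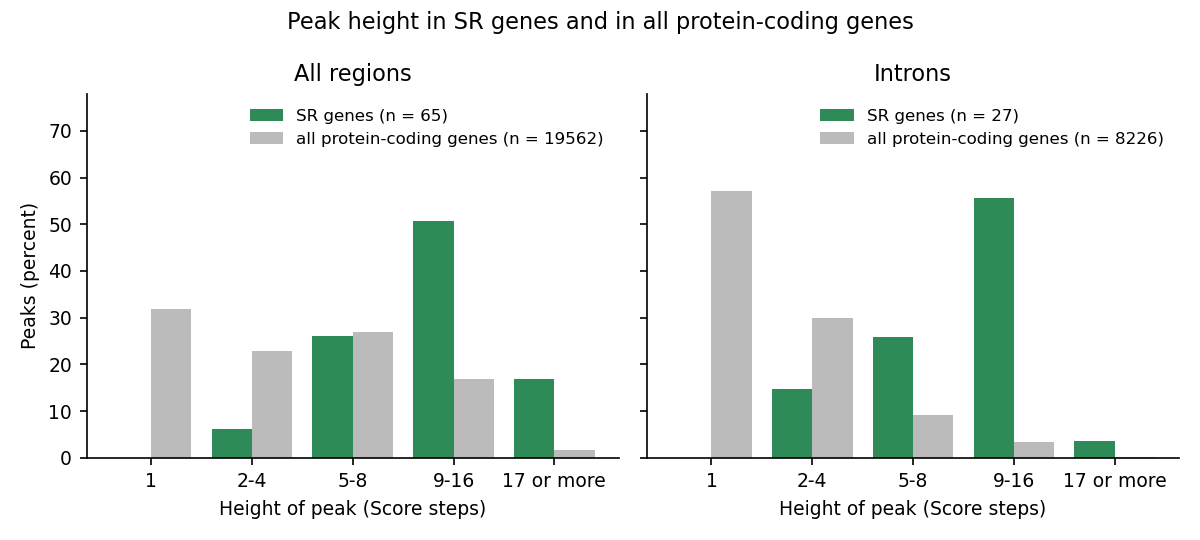
Share of peaks (y axis, percent) by height in Score steps (x axis) for SR genes (green) and all protein-coding genes (grey), over all regions on the left and introns on the right. In introns of the main transcript 15 of the 27 SR peaks lay between 9 and 16 steps, whereas 57.1% of all intron peaks were of 1 step.

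Each of the 10 SR genes had exon sequence that belonged to transcripts annotated as nonsense-mediated decay targets and lay outside the exons of the main transcript. Such sequence is called decay-only sequence here, although other transcripts of the gene, protein-coding ones among them, can include it as well. A cassette is an internal exon of a decay transcript lying wholly within an intron of the main transcript, with or without a premature stop codon. The 10 genes had 28 decay transcripts, of which 25 stopped upstream of the main stop codon and 3, from SRSF1 and SRSF2, ended at the same stop with further splicing downstream of it. Peaks touched decay-only sequence in 4 genes, SRSF2, SRSF5, SRSF10 and SRSF11. Over all protein-coding genes with decay-only sequence, 4.3% had a peak on it, or 9.35% of those with any peak. Of the 65 SR peaks 7 touched decay-only sequence (10.8%, 4.44 to 20.9), beside 1.86% of all peaks in protein-coding genes. All 10 SR genes have such sequence, but only 6438 of the 19061 protein-coding genes do. The 1.86% thus includes peaks in genes where no touch was possible. Each of the 7 was of 8 or more steps, with a median fold enrichment of 3.06. Cassettes were touched by 4 of the 65 peaks, beside 0.429%, a share that likewise includes peaks in genes without a cassette. By gene, cassettes were touched in 3 of the 8 SR genes with one, beside 1.93% of all 3876 genes with one. Both of these counts include genes that held no peak at all. Altogether 4 of the 14 SR cassettes carried a peak. Those in SRSF11 contain a premature stop codon, whereas those in SRSF2 and SRSF10 contain no annotated stop.

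In SRSF2 the cassette at chr17:76735772-76735875 (104 nt), which lies in the last intron, downstream of the stop codon, was covered over 100% of its length by a peak of fold enrichment 2.77 and 16 steps. The same intron held a second peak of 16 steps with a fold enrichment of 2.56. In SRSF10 the cassette at chr1:23977911-23978273 (363 nt) in intron 2 was covered over 86.0% by a peak of fold enrichment 3.06 and 11 steps. A peak of the same height covered 78.3% of the stretch at chr1:23978653-23978712 (60 nt) in the same intron, which extends the second exon in a decay transcript and carries its stop codon. In SRSF11 intron 2 held 3 cassettes, which the decay transcripts include in different combinations. The first, chr1:70230557-70230618 (62 nt), was covered over 64.5% by a peak of fold enrichment 2.37 and 8 steps. The last, chr1:70231859-70231975 (117 nt), was covered over 88.9% by a peak of fold enrichment 2.63 and 9 steps. The cassette between them, chr1:70231095-70231203 (109 nt), held no peak, and the nearest was 108 nt away. In SRSF5, a factor that responds to growth signals, the decay-only sequence was no cassette but most of intron 5 retained as an exon, chr14:69769511-69770466 (956 nt). Peaks of fold enrichment 3.97 and 3.32, of 20 and 16 steps, covered 45.3% of it.

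The other SR genes with peaks had none on their decay-only sequence. In SRSF4 all 4 cassettes were free of peaks, and the nearest peak was 263 nt away, although 3 low peaks lay in introns of this gene. In SRSF1 the nearest peak lay 40 nt from the 200 nt of decay-only sequence in intron 3. The single SRSF9 cassette was 753 nt from a peak. SRSF3, SRSF6 and SRSF7, with 2, 1 and 1 cassettes, had no peak anywhere. The cassettes with a peak thus belonged to 3 genes, and the cassettes of the other 5 SR genes carried none.

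The stretches that end at the premature stop show what was and what was not under a peak. Each is given 5′ to 3′ on the strand of the gene, from hg38, with up to 30 nt of decay-only sequence and the stop codon in capitals. In SRSF11 (plus strand) the stops of the first and last cassettes lay inside a peak, at chr1:70230586-70230615 and chr1:70231879-70231908, and that of the middle cassette, at chr1:70231095-70231117, did not. In SRSF10 (minus strand, chr1:23978673-23978702) the stop lay inside a peak. In SRSF5 (plus strand, chr14:69769532-69769561) it lay just upstream of one. SRSF4 (minus strand, chr1:29166009-29166038), SRSF3 (plus strand, chr6:36599825-36599854) and SRSF6 (plus strand, chr20:43459275-43459304) are shown for comparison, with no peak on the exon.
SRSF11 first cassette: aaaaaaatactcttgacgcatgaaaatTAA
SRSF11 last cassette: gttgttcataaaacagcttttgaaagtTGA
SRSF11 middle cassette: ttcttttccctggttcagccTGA
SRSF10: ttcagatggctgattagtgaggggtgtTGA
SRSF5: atgacgaggagtgcctgtgggttatccTAA
SRSF4: ggagaggttcggttcttacaaggaaaaTGA
SRSF3: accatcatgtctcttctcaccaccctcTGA
SRSF6: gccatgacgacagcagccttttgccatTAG

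**Figure D3:**
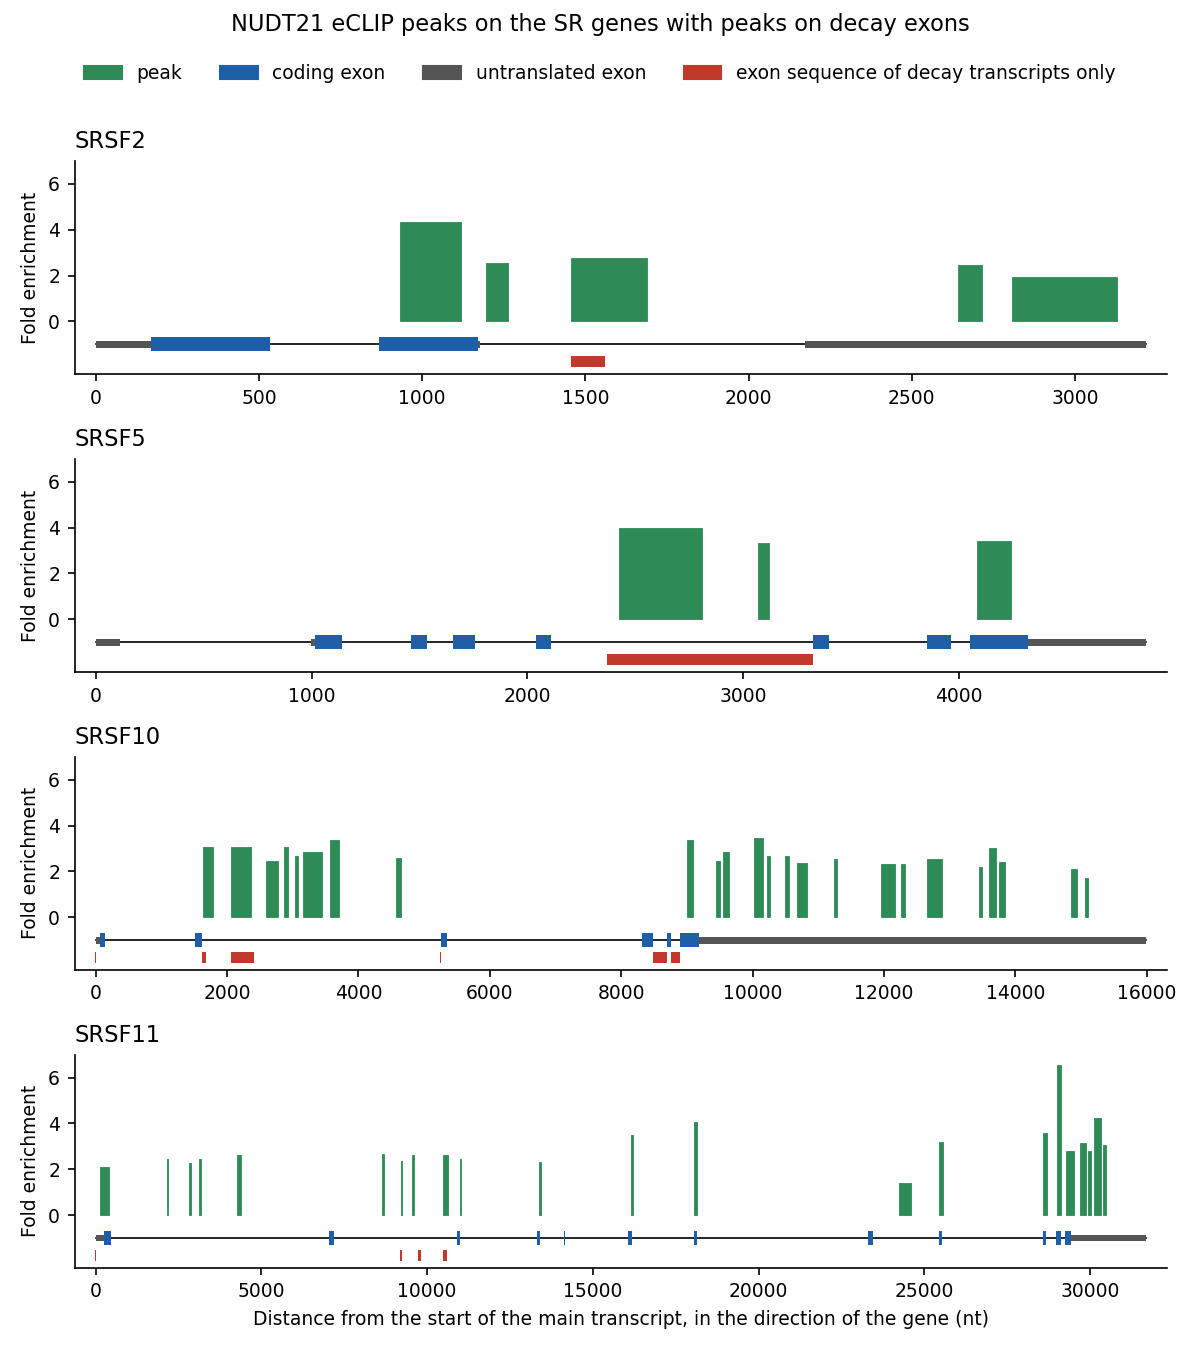
Peaks (green, height on the y axis is fold enrichment) on the main transcript of SRSF2, SRSF5, SRSF10 and SRSF11, with coding exons in blue, untranslated exons in grey and decay-only exon sequence in red. The x axis is the distance from the start of the main transcript in nt. Peaks stood over the decay-only exon of SRSF2, the long one of SRSF5, those of the second intron of SRSF10 and 2 of the 3 cassettes of SRSF11.

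Since regions differ in length, the share of bases under a peak was also taken. In the 7 SR genes with a peak, 30.3% of the decay-only bases (1040 of 3429 nt) were covered, a share close to the 28.7% of coding bases and above the 16.98% of 3'UTR bases. Of the remaining bases, which are mostly intron, 1.53% were covered. In all protein-coding genes with a peak the corresponding shares were 1.66% of decay-only, 5.18% of coding, 3.63% of 3'UTR and 0.401% of remaining bases. Such shares rise with the number of peaks a gene holds, so the classes are compared within each set of genes. Decay-only sequence thus had a lower covered share than coding sequence over all genes, and a similar one in the SR genes. The SR value came from 4 genes: 100% in SRSF2, 45.7% in SRSF10, 45.3% in SRSF5 and 39.8% in SRSF11, with 0% in SRSF1, SRSF4 and SRSF9. Over all 10 SR genes it was 18.7%, and 17.2% with the exons of all protein-coding transcripts left out.

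Introns that hold decay-only sequence carried most of the intron peaks. In the 7 genes 11 introns held such sequence, and 5 of them (45.5%) had a peak of 5 or more steps, against 3 of the 25 other introns (12.0%). Per 10 kb of intron this came to 4.99 peaks of 5 or more steps against 1.29. Without SRSF10 the values were 2.99 and 1.42. In all protein-coding genes with a peak, 1.98% of introns with decay-only sequence and 0.852% of the others had a peak of this height. The 8 intron peaks of SRSF10 all lay in intron 2, within 3026 nt of its 3635 nt, at fold enrichments of 2.47 to 3.38. This intron is also retained in annotated noncoding transcripts: with retained introns and transcripts of undefined coding sequence counted, 18 SR peaks (27.7%, 17.3 to 40.2) touched an alternative exon, beside 9.03% of all peaks in protein-coding genes.

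**Figure D4:**
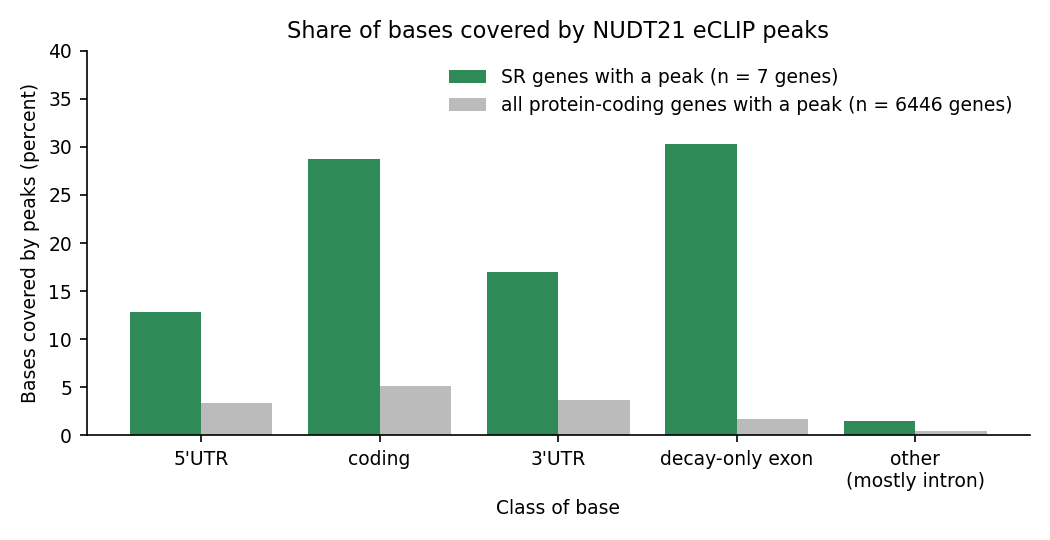
Share of bases covered by peaks (y axis, percent) in 5 classes of bases (x axis) for the 7 SR genes with a peak (green) and the 6446 protein-coding genes with a peak (grey). Classes are compared within each set. Decay-only and coding bases were covered over 30.3% and 28.7% in the SR genes, and over 1.66% and 5.18% in all genes.

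Coding sequence under peaks was richer in serine and arginine codons than that outside peaks in SRSF1, SRSF2, SRSF5, SRSF9, SRSF4 and, by a small margin, SRSF11, but not in SRSF10. In the 7 genes 624 codons lay wholly inside peaks, and 295 of them (47.3%) encoded serine or arginine, against 29.8% of the 1564 codons outside peaks. In the genes with a coding peak taken over all protein-coding genes the shares were 14.9% inside and 14.1% outside. The difference was widest in SRSF1, with 75% of 52 codons inside its peak against 16.2% outside. In SRSF5 it was 77.4% of 53 codons against 29.7%, in SRSF2 74.2% of 62 against 34.0%, and in SRSF9 45.5% of 33 against 17.3%. In SRSF4 the 3 coding peaks held 51.8% such codons against 39.5%. In SRSF11, with 253 codons in peaks, the shares were 28.9% and 24.1%. SRSF10 had the opposite order, with 26.7% of 30 codons inside its coding peak and 39.4% outside. Codons of a gene are not independent, and in most of these genes the serine and arginine codons stand together near the 3' end of the coding sequence.

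The centre of the coding peak of highest fold enrichment in each gene shows how far the genes differed, from a run of serine and arginine codons in SRSF5 to a single such codon in SRSF11. Sequences are from hg38, 5′ to 3′ on the strand of the gene, with whole serine and arginine codons in capitals, and the SRSF10 peak is given in full. The positions are chr17:58005456-58005485 (SRSF1, minus strand), chr17:76736291-76736320 (SRSF2, minus), chr1:29149093-29149122 (SRSF4, minus), chr14:69771289-69771318 (SRSF5, plus), chr12:120462055-120462084 (SRSF9, minus), chr1:23971234-23971326 (SRSF10, minus) and chr1:70250435-70250464 (SRSF11, plus).
SRSF1: gtCGCAGTtacTCCccaAGGAGAAGCAGAg
SRSF2: caagTCCaagTCCTCGTCGgtcTCCAGAtc
SRSF4: gcAGCcatAGCgctggcaagAGCCGCAGCa
SRSF5: gaAGCAGGAGCAGGAGCCGGAGCCGGAGCa
SRSF9: ggcCGTgacTCTccataccaaAGCAGGggt
SRSF10: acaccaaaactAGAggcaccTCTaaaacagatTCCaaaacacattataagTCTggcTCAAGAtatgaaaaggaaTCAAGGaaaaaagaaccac
SRSF11: aagaagaagaagAGTaaagataaggaaaag

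The coding peak of SRSF2 had a fold enrichment of 4.35 and 34 steps, that of SRSF5 3.40 and 17 steps, that of SRSF10 3.38 and 14 steps, and that of SRSF9 3.32 and 13 steps. The highest of SRSF4 reached 3.25 and 14 steps, and that of SRSF1 3.22 and 24 steps. SRSF11 differed from the rest, with 7 coding peaks on 7 separate exons. Their fold enrichments ran from 2.08 on exon 1 to 6.57 on exon 11. Together with the edges of intron peaks, they covered 53.0% of the coding bases of SRSF11. Its peak on exon 1 also covered 51.4% of its 5'UTR, the only 5'UTR bases of an SR gene under a peak. Of the 15 coding peaks, 12 lay in the 3'UTR of a decay transcript as well, since a premature stop leaves the coding sequence downstream of it untranslated. When the 3'UTR of any transcript took precedence, 41 of the 65 peaks (63.1%, 50.2 to 74.7) counted as 3'UTR, beside 29.0% of all peaks in protein-coding genes. Of the 15 coding peaks, 3 remained coding.

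**Figure D5:**
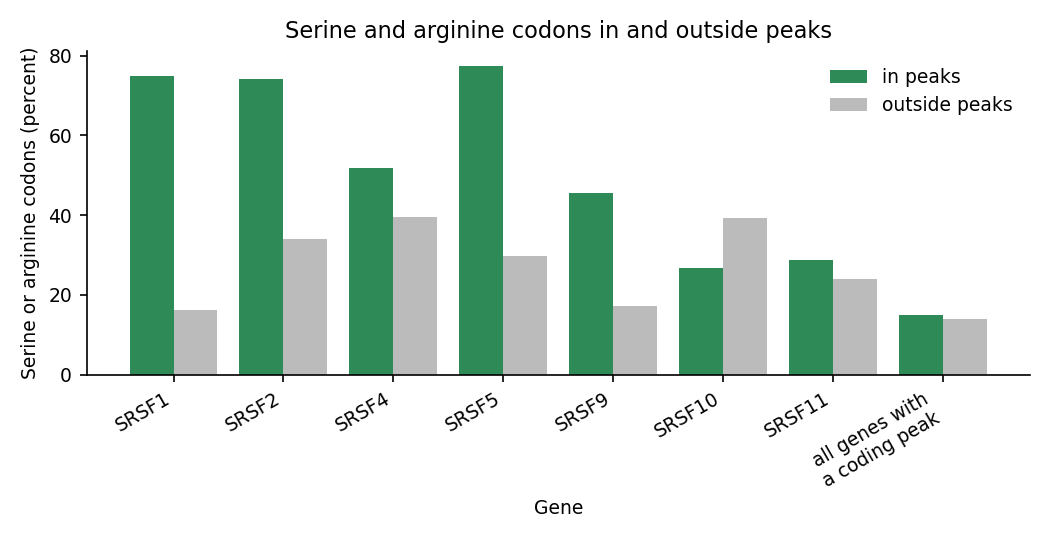
Share of codons that encode serine or arginine (y axis, percent) inside peaks (green) and outside peaks (grey) in the main coding sequence of each SR gene with a peak, and over all genes with a coding peak. In 6 of the 7 SR genes the share inside peaks was the larger, and in SRSF10 the smaller.

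In the 3'UTRs, SRSF10 held 15 peaks over 5663 nt, of fold enrichment 1.72 to 3.46 and 5 to 13 steps, which covered 22.0% of its 3'UTR. The 4 peaks of SRSF11 lay within 774 nt, at 2.80 to 4.26 and 11 to 18 steps. With the end of a coding peak that reached into this 3'UTR, 29.2% of it was covered. The 2 peaks of SRSF2 reached 30 and 19 steps at fold enrichments of 1.96 and 2.48 and covered 37.4%. The 2 of SRSF1 had fold enrichments of 2.78 and 2.27. Of the SRSF1 3'UTR of 4487 nt, 4.37% was covered by all peaks that overlapped it, wherever their midpoint lay. SRSF4, SRSF5 and SRSF9 had no 3'UTR peak. Within 150 nt of an annotated transcript end, on either side of it, lay 11 of the 23 peaks (47.8%, 26.8 to 69.4). Over all protein-coding genes 24.5% of 3494 3'UTR peaks did. Within 150 nt upstream of the nearest end lay 6 of the 23 (26.1%, 10.2 to 48.4), beside 16.9% over all genes. The median distance to the nearest end was 156 nt in the SR genes and 478 nt over all genes. With the ends of protein-coding transcripts alone it was 5 of the 23 peaks (21.7%, 7.46 to 43.7), beside 17.9% over all genes, and the median distance was 312 nt against 670 nt.

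UGUA, read as TGTA in the genome on the strand of the gene, was present in 29 of the 65 peaks (44.6%, 32.3 to 57.5), beside 44.2% of peaks in all protein-coding genes. On the opposite strand it was present in 26 (40.0%), beside 40.7%. Among peaks of 5 or more steps the gene-strand share was 44.3% (31.5 to 57.6) in the SR genes against 27.0% over all genes. The opposite-strand share of these peaks was 39.3% against 26.3%, so the gap was not particular to the gene strand. Their median lengths were 93 and 76 nt, and 24.6% of them in the SR genes and 57.9% over all genes lay in coding sequence. In the central 100 nt of each peak, a window of equal length for all, 25 SR peaks (38.5%) and 31.7% of all peaks held UGUA on the gene strand. Among peaks of 5 or more steps this was 39.3% (27.1 to 52.7) and 28.7%. By region the SR share in this window was 12 of 23 in 3'UTRs (52.2%, 30.6 to 73.2), beside 41.1% of all 3'UTR peaks, and 13 of 27 in introns (48.1%, 28.7 to 68.1), beside 36.9%. In coding sequence it was 0 of 15, an upper bound of 21.8%, beside 21.2%. The SR intervals in each region reached past the value over all genes. Per kb of sequence in the 7 genes, 3'UTR bases under peaks held 7.30 UGUA and those outside 8.36, and decay-only bases held 3.85 and 4.60. Coding bases held 0.525 under peaks and 2.75 outside. UGUA was thus no denser under the peaks than beside them in 3'UTR, decay-only and coding bases. The motifs under peaks were few, at 20, 4 and 1 in these classes. In the remaining bases, mostly intron, the values were 5.30 under peaks and 5.28 outside. GAAGAA on the gene strand, a purine sequence of the kind bound by several SR proteins, was in the central 100 nt of 5 SR peaks (7.69%), beside 8.14% of all peaks.

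Of the 7 peaks on decay-only sequence, 3 held UGUA within the exon, 1 each in SRSF2, SRSF10 and SRSF5. One window of 30 nt from each is given 5′ to 3′ on the strand of the gene, with UGUA as TGTA in capitals. These are at chr17:76735768-76735797 (SRSF2, minus strand), chr1:23978245-23978274 (SRSF10, minus) and chr14:69769740-69769769 (SRSF5, plus). A window from a 3'UTR peak of SRSF2 whose midpoint lay 76 nt upstream of an annotated transcript end, chr17:76734644-76734673 (minus), is shown beside them.
SRSF2 decay exon: gtttctgtgggcgTGTAttggagcaggttt
SRSF10 decay exon: gagaatgtaaagcTGTAcagttatggcgac
SRSF5 decay exon: agacctgtcttccTGTAacgcttccgaata
SRSF2 3'UTR: ctgaacccaaattTGTAtaaagacttttca

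Genes that act with the SR proteins were described in the same way. Of 14 kinases, importers and related splicing genes 9 had a peak, 58 in all. SRPK2 and SRPK1, the kinases that phosphorylate SR proteins in the cytoplasm, held 17 and 15 peaks, and TRA2B, a splicing activator with serine and arginine repeats, held 8. TRA2B had peaks on a decay exon as well: 2 of them, of fold enrichment 3.32 and 2.67, touched its decay cassette sequence, at chr3:185931539-185931646 and chr3:185931695-185931828. Its paralog TRA2A held 2 peaks, neither on decay-only sequence. SRPK2 had 1 such peak, of 3 steps. Of 14 nonsense-mediated decay and exon junction genes 10 had a peak, 40 in all, with most in SMG1, the kinase of the decay factor UPF1, with 13 peaks. UPF2, a decay factor that bridges UPF1 and the exon junction, held 4. Outside these lists ACIN1, a protein associated with exon junctions, had most cassette peaks, with 4. ASCC2, EIF4B, SIRT3 and SLC25A36 followed with 2 each, a count that SRSF11 shared. The SRSF11 cassette peaks had fold enrichments of 2.37 and 2.63. The highest of any peak was 1.17 in SIRT3, 1.39 in ASCC2, 1.61 in SLC25A36, 2.26 in EIF4B and 2.86 in ACIN1. As for markers of cell types, 3 of 10 T-cell markers (CD3E, CD247 and PTPRC) held peaks, against 1 of 4 B-cell markers (CD79B, at a fold enrichment of 1.17), 0 of 4 myeloid, 0 of 3 erythroid and 1 of 3 fibroblast markers. With 33.8% of all protein-coding genes holding a peak, these counts do not tell cell types apart.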

How the data were processed

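eCLIP was performed on J-Gamma1 cells, with 1 NUDT21 antibody library and 1 input library. The authors trimmed reads with fastp, removed duplicates by molecular identifier and ribosomal reads, mapped to hg38 and called peaks with MACS2 (local windows of 1000 and 10000 nt, stated q-value threshold of 0.05). All 20499 deposited peaks have a p-value under 0.05, but only 19 an FDR under 0.05. The aligner and the use of the input as control are not given in the sources used here. Per the deposited list, each peak has a position, a fold enrichment (a ratio of pileup to local background), a p-value, an FDR and a Score. Score is taken as a signal, since 100% of its distinct values were whole steps of 0.228. Depth is unknown, so precision is that of counts of peaks.

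Midpoints were assigned to GENCODE 44 genes and to regions of the MANE Select transcript. A touch was an overlap of at least 1 nt. A peak in several genes was counted in each. UGUA was read from hg38. Shares have exact 95% intervals, and no test was run. The counting was tested on simulated data, where 200 of 200 peaks were returned to their gene. The 10 genes and the lists (kinases, importer and related genes; decay and exon junction genes; cell markers) were chosen with earlier results of these data known. Named genes were the 10 members, the 3 genes of each list with most peaks, TRA2A and TRA2B, and the 5 other genes with most cassette peaks. One gene under this rule is not reported here. Other settings are given in the closing section. The transcript end, codon and intron comparisons were added after seeing the data. Sequences were read with pysam 0.24.0, intervals came from scipy 1.17.1, tables were handled with pandas 2.3.3 and numpy 2.4.6 in Python 3.11.15, and plots were drawn with matplotlib 3.10.9.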

Additional observations from a re-analysis of the deposited data

How the results depend on the processing

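Of 30 alternatives to the settings above 23 left the value within the counting interval or within 1.5 times the count. The number of peaks in the SR genes, 65, became 1 at an FDR under 0.05 and 41 without SRSF10. The 10.8% of peaks on decay exons became 41.5% when all exons of decay transcripts counted, shared exons included, and 27.7% with retained introns and undefined transcripts added. It was 12.2% without SRSF10 and 9.23% with the exons of all protein-coding transcripts left out. The coding share of 23.1% became 6.15% with the 3'UTR of any transcript in precedence. UGUA rose from 44.6% to 66.2% with peaks extended by 50 nt, and the share of high peaks dropped from 93.8% to 67.7% at 9 steps. Of alternatives chosen after seeing the data, the share of 3'UTR peaks near a transcript end, 47.8%, became 21.7% with protein-coding transcripts only, 26.1% with ends downstream only and 75% without SRSF10. The codon share of 47.3% became 59.8% without SRSF11. No paired analysis was possible because only 1 library had a peak list. A single library leaves the repeatability of every peak unmeasured.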
